A study of Mus musculus with 15 samples.

Results

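The transcriptome of O4AID ESCs after 6 h of the auxin IAA (500 µM) was compared with that of the same line at 0 h, with 1 RNA-seq library a side. These are 2 of the 15 libraries of the series, placed in their groups by their labels, and all genes were considered: 13700 of the 48709 listed genes reached a mean of 1 CPM over both libraries and are called measured here, where CPM is the count scaled per M (mega) counted reads with TMM factors. O4AID ESCs are 129SV cells of the ZHBT line that are Oct4-/- and carry TetOFF Oct4 together with 2 transgenes under the CAG promoter, Oct4AID and Tir1. Both groups lacked functional endogenous *Pou5f1*, both were kept in doxycycline (1 µg/ml) to silence the wild-type *Oct4* transgene, and both lived on OCT4 fused to an auxin-inducible degron and driven by the constitutive CAG promoter. Both grew in N2B27 with PD03 (1 µM), Chiron (3 µM) and mLIF, and they differed by IAA alone. The series has no other O4AID library at 0 h or 6 h, and IAA given to cells without the degron-tagged OCT4 was not analysed here. From these 2 libraries, loss of OCT4, an effect of IAA itself and a difference between 2 cultures cannot be told apart. The paper reports a control by qRT-PCR of selected genes, in eGFP-AID ESCs given IAA. It attributes neither the fall of pluripotency genes nor the rise of trophectoderm markers to IAA. The other O4AID libraries (1.5, 10 and 24 h of IAA) and a second line, CreER ESCs, were used for comparison only.

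OCT4, the product of *Pou5f1*, is a POU-domain transcription factor that often binds DNA together with SOX2 and is required for ESCs to stay pluripotent. ESCs grown with inhibitors of MEK and GSK3 and with LIF hold a naive state, kept by a network of transcription factors such as NANOG, ESRRB, KLF4, TFCP2L1 and TBX3, and prolonged loss of OCT4 is known to turn ESCs towards trophectoderm. In a degron line, IAA bridges the tag to the TIR1 receptor and the tagged protein is degraded, whereas its mRNA is not a target. IAA is indole-3-acetic acid. The aryl hydrocarbon receptor, described below through its target genes, is a transcription factor that aromatic ligands, some indoles among them, activate to induce enzymes for foreign compounds such as *Cyp1a1*.

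The promoter windows of 5 genes are shown, 2 genes that were lower at 6 h and 3 that were higher. Each was picked by hand with a motif that its window holds, so the 5 do not stand for the other lower or higher genes. Each runs from 250 bases before to 50 bases after the RefSeq start (GRCm38.p6) and is written 5′ to 3′ on the gene's own strand. Capitals mark the octamer bound by POU factors (ATGCAAAT or its complement ATTTGCAT) in *Zfp42* and *Zfp296*, a TATA box (TATAAA) in *Cyp1a1*, the xenobiotic response element bound by the aryl hydrocarbon receptor (TNGCGTG) in *Ahrr*, and the antioxidant response element bound by NRF2 (TGACNNNGC, here as its complement GCNNNGTCA) in *Srxn1*.
*Zfp42*, chr8:43306960-43307259, minus strand: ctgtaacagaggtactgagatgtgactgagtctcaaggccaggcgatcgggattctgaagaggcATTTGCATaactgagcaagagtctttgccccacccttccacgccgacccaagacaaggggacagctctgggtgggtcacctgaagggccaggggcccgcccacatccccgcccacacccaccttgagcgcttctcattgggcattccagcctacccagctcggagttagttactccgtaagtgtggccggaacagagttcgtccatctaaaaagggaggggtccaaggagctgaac
*Zfp296*, chr7:19577037-19577336, plus strand: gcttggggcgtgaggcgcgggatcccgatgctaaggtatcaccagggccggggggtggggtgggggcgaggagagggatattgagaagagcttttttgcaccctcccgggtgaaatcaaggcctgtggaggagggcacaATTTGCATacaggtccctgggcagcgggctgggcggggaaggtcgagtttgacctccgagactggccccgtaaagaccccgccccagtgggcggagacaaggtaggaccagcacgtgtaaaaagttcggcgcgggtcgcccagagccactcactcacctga
*Cyp1a1*, chr9:57697363-57697662, plus strand: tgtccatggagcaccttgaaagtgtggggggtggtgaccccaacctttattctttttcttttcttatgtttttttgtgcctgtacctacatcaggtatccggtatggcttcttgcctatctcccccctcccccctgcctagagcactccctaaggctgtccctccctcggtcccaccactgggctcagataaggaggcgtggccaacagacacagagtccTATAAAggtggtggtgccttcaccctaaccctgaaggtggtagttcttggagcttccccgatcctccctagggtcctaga
*Ahrr*, chr13:74292282-74292581, minus strand: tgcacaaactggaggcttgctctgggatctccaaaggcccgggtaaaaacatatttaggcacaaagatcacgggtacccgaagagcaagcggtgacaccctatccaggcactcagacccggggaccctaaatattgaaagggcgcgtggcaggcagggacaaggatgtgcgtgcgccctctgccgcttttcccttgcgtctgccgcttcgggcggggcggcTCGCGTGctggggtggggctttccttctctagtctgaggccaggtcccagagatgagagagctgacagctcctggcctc
*Srxn1*, chr2:152105274-152105573, plus strand: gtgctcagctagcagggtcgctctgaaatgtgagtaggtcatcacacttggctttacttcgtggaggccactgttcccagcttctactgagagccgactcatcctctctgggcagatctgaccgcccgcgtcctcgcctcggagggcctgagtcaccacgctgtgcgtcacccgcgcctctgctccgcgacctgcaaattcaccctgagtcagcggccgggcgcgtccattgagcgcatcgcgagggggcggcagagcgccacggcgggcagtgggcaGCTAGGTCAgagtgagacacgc

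A window was matched for 9737 of the 12362 measured protein-coding genes, 90 of them at least 2-fold lower and 117 at least 2-fold higher at 6 h. Searched on both strands, the octamer was present in 3.33% of the windows of lower genes, 3.42% of those of higher genes and 1.36% of all 9737, so it was no commoner among the lower than among the higher genes. The xenobiotic response element was in 6.84% of the windows of higher genes and 8.42% of all, and the antioxidant response element in 11.11% and 14.75%. TATAAA was in 8.89% of lower, 10.26% of higher and 6.35% of all windows. No xenobiotic response element was found in the windows of *Cyp1a1*, *Cyp1b1* or *Tiparp*, and no octamer in those of *Tet2* or *Klf4*. These are matches of letters in a short window that leaves out distal enhancers.

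At 6 h, 161 genes were at least 2-fold lower than at 0 h, which is 1.18% of the measured genes, and 167 were at least 2-fold higher, which is 1.22%. Few of them were 4-fold apart, 19 lower and 17 higher. The log2 ratio of TMM-scaled counts over all measured genes had a median of -0.002 and an SD of 0.369. The 0 h library held 48.7 M counted reads and the 6 h library 41.1 M, with a median of 1123 and 993 reads per measured gene. Counting error alone therefore left small differences visible, and the 95% counting interval lay wholly below 0 for 28.4% of measured genes and wholly above 0 for 26.0%. That interval covers the sampling of reads only, since the reads carry no molecular identifiers and no replicate culture was sequenced. The line has no replicates to set the spread, but between the 2 replicates of a single CreER group the same rule put 13 to 34 genes at least 2-fold apart, 0.087 to 0.227% of those measured, against 328 genes or 2.394% here. The SD of the log2 ratio was 0.174 to 0.211 between those replicates. CreER is another line with fewer reads a library, and nothing states that its replicates were separate cultures. Its spread is therefore no measure of that between O4AID cultures.

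Genes with a high mean level over both libraries were more often among the lower than among the higher genes. Of the 2269 genes with a mean of at least 100 CPM, 20 were at least 2-fold lower. That is no larger a share than the 1.18% of all measured genes. At least 2-fold higher were 2, beside 1.22% of all, so the contrast lay in the few higher genes. The 2 were *Gss*, which encodes glutathione synthetase (85.3 CPM at 0 h and 184.7 CPM at 6 h), and *Srxn1*. The median level of the 125 lower protein-coding genes was 8.28 CPM at 0 h and 3.51 CPM at 6 h, and that of the 154 higher ones was 1.61 CPM and 4.39 CPM. The fold rule itself sets the order of these medians at each time, and both sets lay below the medians of all measured protein-coding genes, 27.79 CPM and 27.82 CPM. Among protein-coding genes with a mean of at least 5 CPM the balance turned, with 66 lower and 54 higher.

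**Figure D1:**
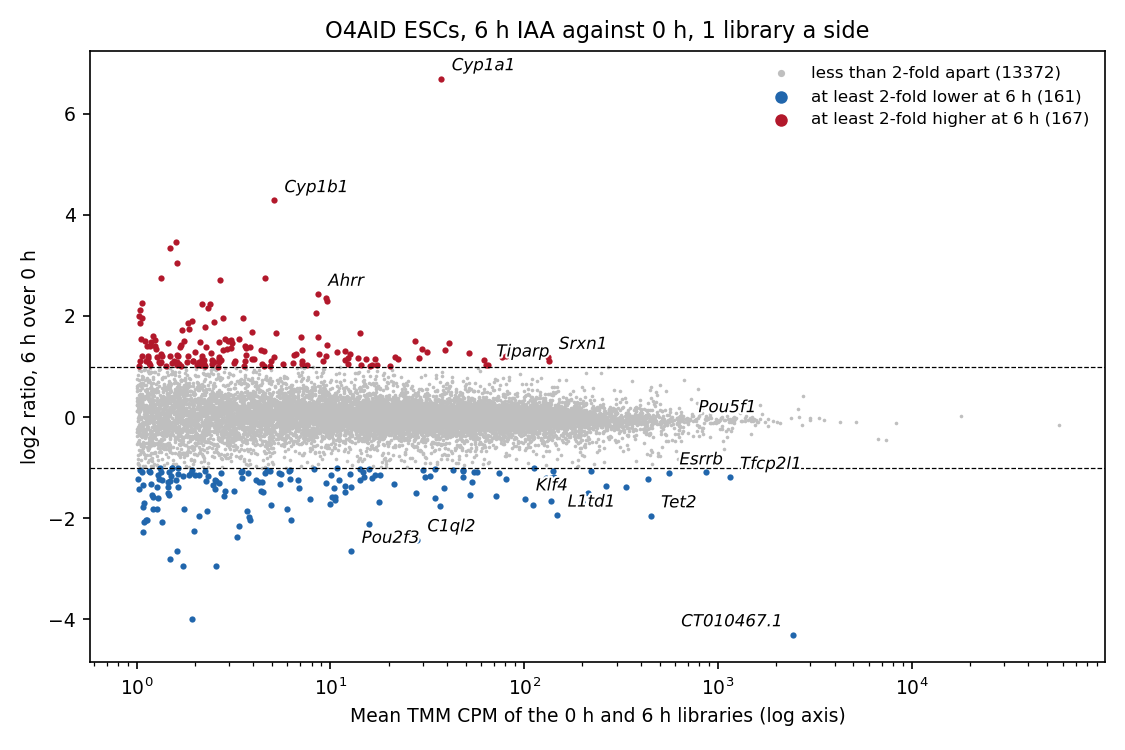
Each point is 1 of 13700 measured genes, placed by the mean TMM CPM of both libraries (log axis) and by the log2 ratio of 6 h over 0 h. Blue points are the 161 lower genes and red points the 167 higher genes, the dashed lines mark 2-fold, and *Cyp1a1* stood alone at 6.70.

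*Pou5f1* itself (ENSMUSG00000024406, chromosome 17 from 35506018 to 35510772, plus strand, GRCm38) is given first as the targeted gene. Its mRNA is not what IAA acts on, so its level is no check of the labels. It had 33610 reads or 717 CPM at 0 h and 28266 reads or 684 CPM at 6 h, a log2 ratio of -0.07 with a counting interval from -0.09 to -0.05. The remaining libraries had 816 CPM (1.5 h), 670 CPM (10 h) and 601 CPM (24 h), so its level stayed within a narrow range. The counts join reads from the degron-tagged transgene, the silenced transgene and the endogenous locus. They do not report the protein, so by themselves they cannot show whether OCT4 was lost. The paper reports western blots of this line, in which the tagged protein fell quickly after IAA. By its account the protein could no longer be detected well before the later time compared here. Those blots were not part of the data used here. In CreER ESCs, where 4OHT (500 nM) deletes the gene, *Pou5f1* had 329.7 and 325.9 CPM at 0 h and 114.8 and 126.7 CPM at 36 h.

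The 12 largest falls among protein-coding genes with a mean of at least 5 CPM were 3.10-fold to 6.29-fold. They held regulators of transcription and chromatin, signalling components and genes with little known function. First came *Pou2f3*, another POU-domain transcription factor, with 1037 reads or 22.1 CPM at 0 h and 145 reads or 3.51 CPM at 6 h. Its log2 ratio was -2.65, with an interval from -2.92 to -2.40. *Zfp296*, a zinc finger gene of ESCs whose octamer is printed above, had 25.8 CPM and 5.93 CPM, and was already at 12.2 CPM at 1.5 h. *Tet2*, which encodes a dioxygenase that oxidises methylcytosine, was the protein-coding gene with the largest fall among those with a mean of at least 100 CPM. It had 33458 reads or 714 CPM at 0 h and 7628 reads or 185 CPM at 6 h, a log2 ratio of -1.95 (-1.99 to -1.92). Its level at 1.5 h was 649 CPM, much nearer to that at 0 h.

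*L1td1*, an RNA-binding protein gene derived from a LINE-1 element, had 235 CPM at 0 h and 61.4 CPM at 6 h. *Phc1*, a subunit of Polycomb repressive complex 1, had 303 CPM and 94.99 CPM. *Tdgf1*, the Nodal co-receptor also called Cripto, had 210 CPM and 66.3 CPM. All 3 genes were more than 3-fold lower, with log2 ratios of -1.94, -1.67 and -1.66. *Spry2*, a feedback inhibitor of receptor tyrosine kinase signalling, had 57.1 CPM at 0 h, 28.7 CPM at 1.5 h and 16.8 CPM at 6 h. *Cobl*, an actin nucleator, had 171 CPM at 0 h and 51.3 CPM at 6 h. *C1ql2*, a secreted protein of the C1q family, had 47.2 CPM and 8.79 CPM. The rest were *Pramef17* (log2 ratio -1.71), *Gm13128* (-1.68) and *1700019D03Rik* (-1.63). *Pramef17* belongs to a family of near-identical genes and *Gm13128* lies close to it on chromosome 4, so both counts are uncertain. A processed pseudogene of *Tdgf1*, *Tdgf1-ps1*, was also lower (-1.83), and reads of that pair may be split between them.

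The 12 largest rises, again among protein-coding genes with a mean of at least 5 CPM, were 2.77-fold to 104-fold. The largest was *Cyp1a1* (ENSMUSG00000032315, chromosome 9 from 57697613 to 57703822, plus strand), a cytochrome P450 that oxidises aromatic compounds. It had 33 reads or 0.704 CPM at 0 h and 3060 reads or 74.1 CPM at 6 h, a log2 ratio of 6.70 (6.22 to 7.26). The other libraries gave 10.7 CPM (1.5 h), 170 CPM (10 h) and 277 CPM (24 h), so every later library was higher than the one before. *Cyp1b1*, a related P450, had 23 reads or 0.491 CPM at 0 h and 403 reads or 9.76 CPM at 6 h, a log2 ratio of 4.28 (3.71 to 4.99). *Ahrr*, which encodes the repressor of the aryl hydrocarbon receptor and is itself a target of that receptor, had 126 reads or 2.69 CPM and 601 reads or 14.6 CPM. Within that limit of level, the 3 largest rises were classic targets of this receptor. Below it, *Tmprss2* (12 reads and 121 reads), *Sprr2a1* (12 and 112), *Nags* (16 and 119), *Rbm24* (16 and 97), *Gadd45g* (56 and 333) and *Mogat2* (33 and 194) had ratios above that of *Ahrr*.

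The other 9 rises were smaller and spanned unrelated functions. *Fhdc1*, a formin, had 3.12 CPM at 0 h and 15.9 CPM at 6 h. *Prr15* had 3.25 CPM at 0 h, 10.8 CPM at 1.5 h and 16.1 CPM at 6 h, so much of its difference was in place at the earlier time. *Zfp703*, a transcriptional repressor, had 3.27 CPM and 13.7 CPM. *Aldh1a3*, which makes retinoic acid, had 6.89 CPM at 0 h and 21.7 CPM at 6 h but 5.75 CPM at 24 h, the only one of the 12 that ended below its start. *Slc7a11*, the cystine and glutamate antiporter, had 3.52 CPM and 10.6 CPM. *Plk3*, a polo-like kinase, had 21.8 CPM and 60.4 CPM and stood at 24.0 CPM at 24 h. *Pdlim4* (log2 ratio 1.65), *Lipg* (1.58) and *Hpse* (1.51), which encode an actin-associated adaptor, endothelial lipase and heparanase, completed the set.

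The other times share the 0 h library with the 6 h comparison and are given side by side only. All 12 falls had a level at 1.5 h between those at 0 h and 6 h, as did 11 of the 12 rises, the exception being *Lipg* (4.33 CPM at 0 h and 4.12 CPM at 1.5 h). At 10 h, 11 of 12 falls were lower than at 6 h and 10 of 12 rises were higher. At 24 h these counts were 11 and 7. Over the 125 lower protein-coding genes the median log2 ratio to the 0 h library was -0.27, -1.28, -1.59 and -2.09 after 1.5, 6, 10 and 24 h of IAA. Over the 154 higher ones it was 0.33, 1.22, 1.49 and 1.49. The values at 6 h chose these genes, so they describe and do not test them.

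**Figure D2:**
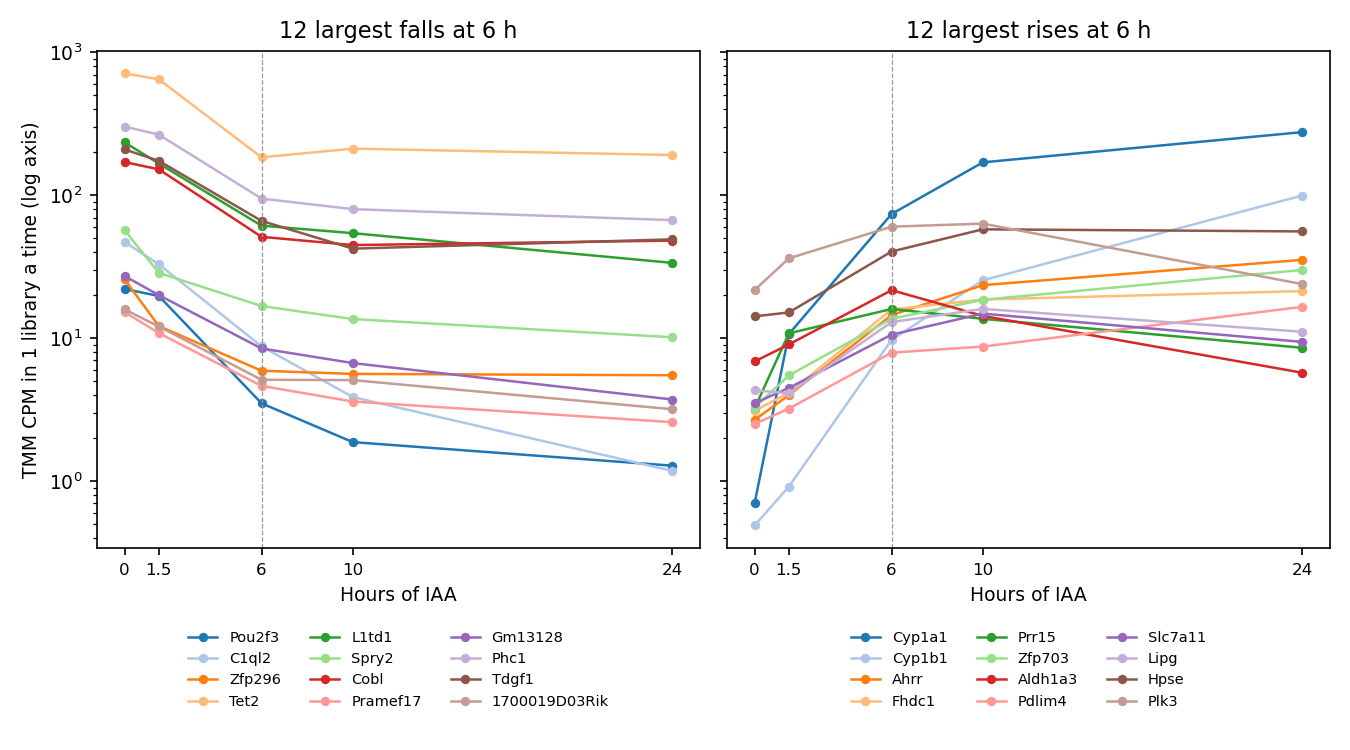
TMM CPM (log axis) of the 12 largest falls (left) and the 12 largest rises (right) in the single O4AID library at each of 0, 1.5, 6, 10 and 24 h of IAA. Each line is a gene and the dashed line marks 6 h. At 24 h, 11 of the 12 falls were lower still than at 6 h, and *Cyp1a1* and *Cyp1b1* had gone on to 277 and 99.8 CPM.

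The naive network was lower as a whole. Of 15 naive pluripotency transcription factors, all 15 had a counting interval below 0 and 8 were at least 2-fold lower, with none higher, against 1.18% of all measured genes. The median log2 ratio was -1.10 (range -1.62 to -0.43), beside -0.002 over all measured genes. *Klf4*, a Krüppel-like factor, had 153 CPM at 0 h and 49.95 CPM at 6 h. *Nr0b1*, an orphan nuclear receptor, had 52.5 CPM and 17.2 CPM. *Zfp42*, also called Rex1, had 383 CPM and 149 CPM, *Tbx3* had 182 CPM and 78.2 CPM, and *Esrrb* had 763 CPM and 356 CPM. *Tfcp2l1*, one of the factors downstream of LIF, had 74877 reads or 1598 CPM at 0 h and 28924 reads or 700.3 CPM at 6 h. *Klf2* (log2 ratio -1.18) and *Gbx2* (-1.25) were the remaining genes past 2-fold.

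Members that did not reach 2-fold were nevertheless lower. *Nanog* had 1304 CPM at 0 h and 837 CPM at 6 h, a log2 ratio of -0.64, and *Sox2*, the partner of OCT4, had 315 CPM and 235 CPM, a log2 ratio of -0.43. *Nr5a2* (-0.44), *Klf5* (-0.55), *Mybl2* (-0.78), *Sall4* (-0.92) and *Prdm14* (-0.92) lay between. The summed level of the 15 genes was 5974 CPM at 0 h and 3129 CPM at 6 h. The median log2 ratio to the 0 h library was -0.33 after 1.5 h of IAA, -1.09 after 10 h and -1.71 after 24 h.

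ESC-enriched effector genes, which act downstream of the network, were lower by less. Of 25 measured, 21 had an interval below 0 and 3 above, beside 28.4% and 26.0% of all measured genes. At least 2-fold lower were 5, beside 1.18% of all, and none was 2-fold higher. The median log2 ratio was -0.62. Besides *Tet2*, *L1td1* and *Tdgf1*, the 5 were *Jam2*, a junctional adhesion molecule (314 CPM at 0 h and 111 CPM at 6 h), and *Lefty1*, a Nodal antagonist (84 reads and 15 reads). *Fgf4*, the growth factor bound by OCT4 and SOX2 in its enhancer, had 229 CPM and 123 CPM. *Tet1* had 536 CPM and 321 CPM, a log2 ratio of -0.74, less than that of *Tet2*. *Tex19.1* (79.3 CPM and 125 CPM) and *Lefty2* (91 reads and 138 reads) went the other way.

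Of 20 trophectoderm and trophoblast genes, the lineage that follows prolonged OCT4 loss, 14 were measured. Their median log2 ratio was 0.45, beside -0.002 over all measured genes, and 8 of 14 had an interval above 0 and 3 below, beside 26.0% and 28.4% of all. None of the 14 was 2-fold apart, where 1.18% of all genes were lower and 1.22% higher by that rule, so a count of 0 says little of a list of this size. *Cdx2*, a master regulator of trophectoderm, had 42 reads or 0.896 CPM at 0 h and 51 reads or 1.24 CPM at 6 h, and its interval (-0.16 to 1.09) included 0. *Gata3* had 55 reads and 63 reads, *Eomes* had 361 reads and 403 reads, and *Hand1*, not measured, had 14 reads and 15 reads. The largest ratios of measured members belonged to *Gata2* (0.89), *Fgfr2* (0.88) and the keratin gene *Krt18* (0.78). *Krt7*, just under the level to be measured, had 21 reads and 64 reads. *Tead4*, a TEAD-family factor of early trophectoderm that ESCs also express, was the lowest at -0.74 (49.3 CPM and 29.5 CPM).

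Of 7 measured primitive endoderm genes, 2 were at least 2-fold higher, beside 1.22% of all measured genes: *Pdgfra*, a growth factor receptor (53 reads and 183 reads), and *Dab2*, an endocytic adaptor (46 reads and 94 reads). *Gata6*, the factor that specifies this lineage, had 213 reads and 369 reads, a log2 ratio of 0.97. *Lama1*, a basement membrane laminin, was lower (244 CPM and 135 CPM). Of 8 measured formative and primed epiblast genes, *Foxd3* (366 reads and 129 reads) and *Eras* (241 reads and 98 reads) were at least 2-fold lower, and *Lin28a*, an RNA-binding regulator of let-7, was at least 2-fold higher (111 reads and 197 reads). Both lists had members on both sides but leaned opposite ways. The primitive endoderm genes had a median log2 ratio of 0.42, with 5 of 7 intervals above 0 and 1 below. The epiblast genes had a median of -0.37, with 1 of 8 intervals above 0 and 5 below. Of all measured genes, 26.0% had an interval above 0 and 28.4% below.

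The aryl hydrocarbon receptor targets had the highest median of the 16 lists, 1.73 over 6 measured genes, of which 4 were at least 2-fold higher and none lower, against 1.22% of all measured genes. Besides *Cyp1a1*, *Cyp1b1* and *Ahrr*, *Tiparp*, a poly(ADP-ribose) polymerase that restrains the receptor, had 1955 reads or 41.7 CPM at 0 h and 3526 reads or 85.4 CPM at 6 h. *Nqo1*, a quinone reductase that NRF2 also drives, had 113 CPM and 189 CPM, a log2 ratio of 0.74. *Aldh3a1* had 86 reads and 61 reads, with an interval that included 0 (-0.81 to 0.18), so the list was not uniformly higher. *Cyp1a2*, not measured, had 3 reads and 11 reads. All CPM values of *Tiparp* and *Nqo1* went up through the later libraries, to 124 CPM and 310 CPM at 24 h.

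NRF2 targets, which defend against oxidants, were higher by less. Of 10, 8 had an interval above 0 and 2 below, beside 26.0% and 28.4% of all measured genes. At least 2-fold higher were 3, beside 1.22% of all, none was 2-fold lower, and the median was 0.53. *Srxn1*, sulfiredoxin, had 81.7 CPM at 0 h and 185 CPM at 6 h. *Osgin1* had 80 reads and 183 reads, and *Slc7a11* is given above. *Gclm*, *Hmox1* and *Txnrd1* had log2 ratios of 0.56, 0.57 and 0.51. After 1.5, 10 and 24 h the median of the list was 0.04, 0.25 and 0.02, beside 0.45, 2.27 and 2.64 for the aryl hydrocarbon receptor targets.

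Signalling lists together had members past 2-fold in both directions, to be read beside 1.18% of all measured genes lower and 1.22% higher. Only the Nodal and BMP list had both within itself. The median log2 ratio was -0.26 for ERK feedback, 0.52 for Wnt target, 0.11 for Nodal and BMP response and 0.675 for immediate early genes. Of 10 ERK feedback genes, *Spry2* and *Dusp6*, a phosphatase of ERK (347 reads and 142 reads), were at least 2-fold lower, while *Dusp4* had a log2 ratio of 0.87. MEK was inhibited in both cultures. Of 10 Wnt target genes, *Cdx1*, a homeobox gene, was at least 2-fold lower (101 CPM and 46.9 CPM), while *Axin2* (0.96), *Sp5* (0.92), *Notum* (0.83) and *Nkd1* (0.77) were higher without reaching 2-fold. Of the Nodal and BMP response genes, *Lefty1* and *Tdgf1* were at least 2-fold lower, and *Id4*, an inhibitor of bHLH factors, was at least 2-fold higher (175 reads and 319 reads). Of 6 immediate early genes, *Fos* (76 reads and 153 reads) and *Jun* (4.16 CPM and 8.72 CPM) were at least 2-fold higher.

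The remaining lists are described by their medians. None of their members was 2-fold apart, a count near that of the 1.18% and 1.22% of all measured genes in lists of this size. The median log2 ratio was 0.23 for 12 ATF4 targets, where *Atf3* (0.82) and *Ddit3* (0.81), genes of the unfolded protein and amino acid response, were highest. It was 0.03 for 13 p53 targets, 0.13 for 9 LIF-STAT3 pathway genes and 0.04 for 14 cholesterol synthesis genes. *Socs3*, the feedback inhibitor of LIF signalling, was the highest of the LIF list at 0.54. The 12 common reference genes had a median of -0.06 and a range of -0.15 to 0.28, which shows the scale of difference among genes often taken as steady. *Actb*, for example, had 143120 reads and 121621 reads, a log2 ratio of -0.05.

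**Figure D3:**
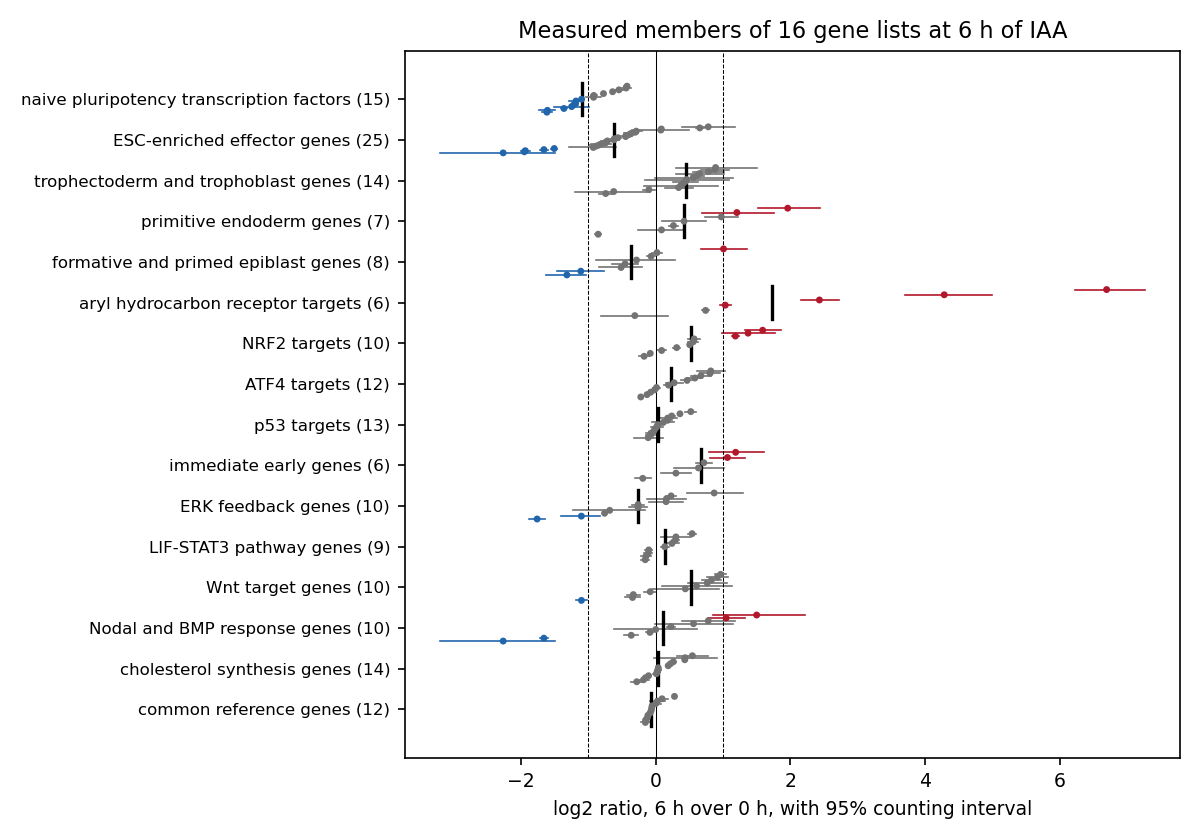
Each point is a measured member of 1 of 16 gene lists (their number in parentheses), placed by its log2 ratio of 6 h over 0 h with its 95% counting interval. Blue members were at least 2-fold lower, red ones at least 2-fold higher, black bars are list medians and dashed lines mark 2-fold. All 15 naive factors lie left of 0, and the aryl hydrocarbon receptor targets reach 6.70.

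All 6 ESC markers were measured, as were 11 of 24 markers of other cell types, chiefly neural and germ cell ones. Of 6 fibroblast markers only *Col1a1* was measured (162 reads and 113 reads), 3 had at most 3 reads in each library, and their summed level was 4.76 CPM at 0 h and 4.09 CPM at 6 h. The 4 endoderm markers summed to 3.44 CPM and 4.19 CPM, and the 4 mesoderm markers to 3.39 CPM and 2.18 CPM. The 6 neural markers summed to 67.4 CPM and 86.8 CPM, with *Tubb3*, a neuronal tubulin, at least 2-fold higher (616 reads and 1231 reads) and *Neurod1*, a neurogenic factor, at least 2-fold lower (79 reads and 20 reads). The 4 germ cell markers summed to 130 CPM and 137 CPM, nearly all from *Dazl* (120 CPM and 128 CPM). The part of marker levels in the results was not tested. Bulk counts cannot tell fewer cells of a kind from less RNA per cell.

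Genes other than protein-coding ones made up 36 of the 161 lower and 13 of the 167 higher genes, where 90.2% of all measured genes were protein-coding. Processed pseudogenes gave 11 of 416 measured to the lower set and none to the higher set, and lincRNAs gave 8 and 1 of 237. Of all measured genes, 1.18% were lower and 1.22% higher by that rule. *Platr15*, a lincRNA associated with pluripotency, had 28657 reads or 612 CPM at 0 h and 10784 reads or 261 CPM at 6 h. Of the 17 measured genes named *Platr*, a family looked at after its values were seen, 5 were at least 2-fold lower and none higher. The shares of all measured genes were again 1.18% and 1.22%. The median log2 ratio of the 17 was -0.32. The largest fall of any measured gene was *CT010467.1*, a ribosomal RNA gene on chromosome 17, also looked at afterwards. In order of time its levels were 4642, 975, 235, 138 and 940 CPM. The libraries were depleted of ribosomal RNA before sequencing, and the 0 h library was the highest of the 5 in this remnant; its part in the other results was not tested.

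The median summed exon length was 4049 bases for the 125 lower protein-coding genes, 4017 for the 154 higher and 4089 for all 12362 measured, and the median number of exons listed was 8, 7 and 10. The median gene span was 28392 bases for the lower, 19625 for the higher and 23698 for all measured genes. The mean GC content of the promoter windows was 58.4%, 61.2% and 61.3%. Chromosome 1 held 16 of the lower genes, 2.33% of those measured on it, and chromosome 19 held none of them. Chromosome 3 held 15 of the higher genes, 2.66% of those measured. Over all chromosomes, 125 lower and 154 higher genes stood among the 12362 measured. The chromosomes named are extremes, and these shares are descriptions with no test.

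The second line shows how far the same genes differ by another route. CreER ESCs (Oct4Fl/-; CAG CreER; a mixed 129SV C57BL/6 background) lose *Pou5f1* by Cre recombination after 4OHT, and 2 replicate libraries were made at each of 0, 12, 18, 24 and 36 h. Line, background, agent and time all differ from O4AID, and the study's methods also describe a change to serum medium with 4OHT for CreER cells, so which medium the CreER libraries had is not settled. Levels before treatment differed too: *Dnmt3l* had 2.09 CPM in O4AID and 609 CPM in CreER at 0 h, and *Lin28a* had 2.37 CPM and 608 CPM. The CreER libraries share no sample with the 6 h comparison. At 36 h against 0 h, 6948 of 18969 genes tested were called by the quasi-likelihood test of edgeR at a Benjamini-Hochberg adjusted p under 0.05. Of the 13293 genes measured in both lines, 20.5% were called lower and 23.7% called higher.

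Of the 161 genes at least 2-fold lower at 6 h, 142 were tested in CreER, where 73 (51.4%) were called lower, 4 called higher and 65 not called. Of the 167 higher genes, 146 were tested, where 89 (61.0%) were called higher, 7 called lower and 50 not called. The shares in the direction of O4AID lay above the 20.5% and 23.7% of all genes measured in both, and the shares called the opposite way, 2.8% of the lower and 4.8% of the higher genes, lay below. The median log2 fold change in CreER was -0.42 for the lower genes and 0.70 for the higher genes, beside 0.01 for all genes measured in both. In size, 28 of the 142 lower genes were called and at least 2-fold lower in CreER, and 45 of the 146 higher genes called and at least 2-fold higher. The share of all genes that were both called and 2-fold apart in CreER was not counted. The 20.5% and 23.7% are for calls of any size, so these 2 counts have no background here.

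Of the 12 largest falls, 11 were tested in CreER, 8 were called lower and none higher, beside 20.5% and 23.7% of all genes measured in both. *Tet2* had 176.5 and 173.1 CPM at 0 h and 90.3 and 87.0 CPM at 36 h (log2 fold change -0.97, SE 0.04, edgeR adjusted p = 8.82e-16). *L1td1* had 664.5 and 681.2 CPM at 0 h and 272.0 and 226.5 CPM at 36 h (-1.42, SE 0.06, edgeR adjusted p = 1.22e-11). The replicates of either gene did not overlap between the times, but with 2 libraries a time that is weak. Its share over all genes was not counted. *Pou2f3* was near the floor of detection in CreER, at 0.858 CPM on average at 0 h, and was not called (edgeR adjusted p = 0.919), and *C1ql2* was too low to be tested.

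The naive factors were less uniform in CreER. Of the 15, 9 were called lower, 2 called higher and 4 not called, with a median log2 fold change of -0.16. Of all genes measured in both lines, 20.5% were called lower and 23.7% higher. *Tfcp2l1*, at least 2-fold lower in O4AID, had 210.7 and 218.3 CPM at 0 h in CreER and 347.2 and 318.9 CPM at 36 h (0.65, SE 0.05, edgeR adjusted p = 1.17e-10). *Nanog* was called higher by less (0.20, SE 0.04, edgeR adjusted p = 0.000119). *Esrrb* (0.07, SE 0.05) and *Tbx3* (0.12, SE 0.07) were not called, with edgeR adjusted p of 0.251 and 0.170. *Klf4* was called lower in CreER by 0.16 on the log2 scale, beside a log2 ratio of -1.62 in O4AID. Besides *Tfcp2l1*, the genes lower in O4AID and called higher in CreER were *Bach2*, *Cdx1* and *Ffar3*. With 1 library a side in O4AID, the difference between the lines was not tested.

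The trophectoderm list had a larger median in CreER at 36 h than in O4AID at 6 h, but these times are unlike. Of the 14 genes measured in O4AID, 13 were called higher in CreER at 36 h and none lower. Of all genes measured in both lines, 23.7% were called higher and 20.5% lower. The median log2 fold change of the 14 was 0.97, beside a median log2 ratio of 0.45 at 6 h in O4AID. *Cdx2* had 2.81 and 2.68 CPM at 0 h and 14.4 and 14.8 CPM at 36 h (2.43, SE 0.14, edgeR adjusted p = 1.24e-13). In O4AID the median log2 ratio of these 14 genes was 0.82 after 10 h and 1.14 after 24 h.

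Of the 12 largest rises, 11 were tested in CreER, 8 were called higher and none lower, beside 23.7% and 20.5% of all genes measured in both. *Cyp1a1* had 2.93 and 2.21 CPM at 0 h and 3.64 and 3.63 CPM at 36 h, a log2 fold change of 0.53 (SE 0.18, edgeR adjusted p = 0.0242), beside a log2 ratio of 6.70 in O4AID. *Cyp1b1* had 10.5 and 9.58 CPM at 0 h and 23.6 and 24.7 CPM at 36 h (1.27, SE 0.08, edgeR adjusted p = 1.16e-12), beside 4.28. *Tiparp* was called lower in CreER (-0.29, SE 0.04, edgeR adjusted p = 6.5e-06) and at least 2-fold higher in O4AID, and *Slc7a11* (-0.21, SE 0.30) was not called (edgeR adjusted p = 0.625). CreER cells were not given IAA. The other 6 genes higher in O4AID and called lower in CreER were *Trim2*, *Lin28a*, *Sema7a*, *Rragb*, *Cacna2d1* and *Frem2*.

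**Figure D4:**
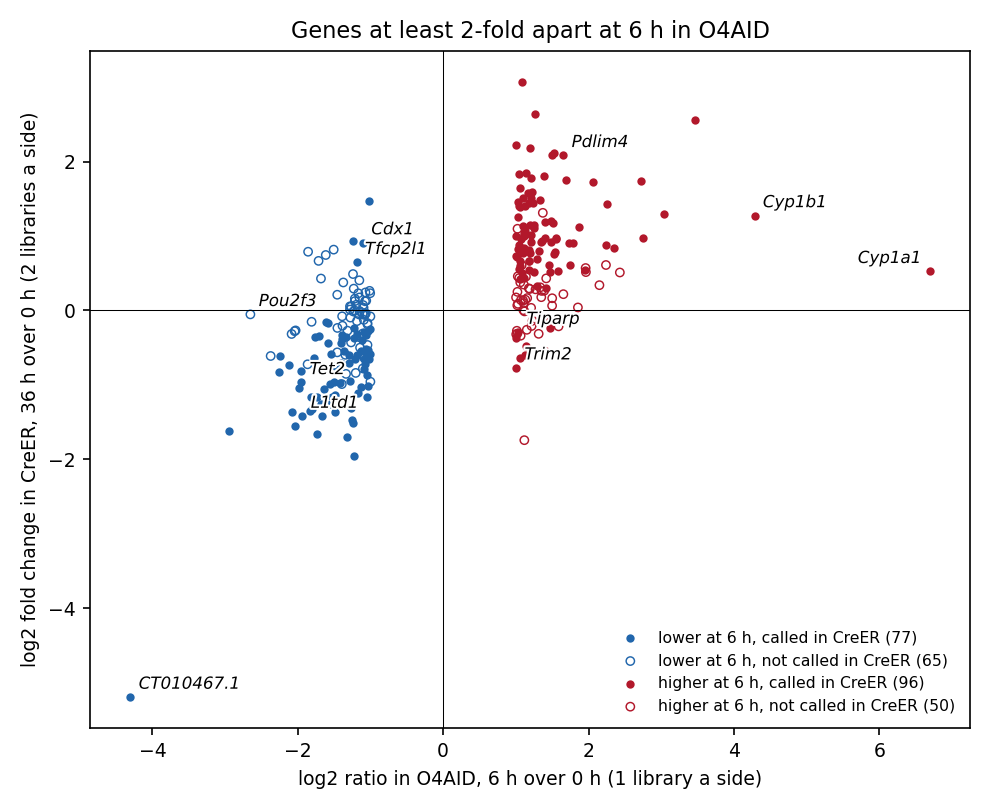
Genes at least 2-fold lower (blue) or higher (red) at 6 h in O4AID, placed by that log2 ratio and by their log2 fold change in CreER at 36 h against 0 h, with 142 and 146 genes. Filled points were called in CreER in either direction and open points were not. Most blue points lie below 0 and most red points above, with *Tfcp2l1* and *Cdx1* among the exceptions.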

How the data were processed

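RNA-seq gave 15 libraries of mouse ESCs, 5 of O4AID (1 at each time) and 10 of CreER (2 at each of 5 times). The authors depleted ribosomal RNA, made directional paired-end libraries, trimmed reads with Trim Galore 0.1.4, aligned them with TopHat2 2.1.0 to GRCm38/mm10 and counted reads per Ensembl gene with featureCounts 1.5.1. Strand and multimapping settings are not given in the sources used here, so antisense, overlapping and near-identical genes are uncertain. The deposited values are raw read counts per gene, with 40.5 to 48.7 M reads in O4AID and 21.7 to 30.8 M in CreER. Of 48801 entries, 92 spike-in entries held 0 reads and were left out, and 48349 of 48709 genes matched a symbol of GENCODE M21. The deposited TMM table was not used.

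Counts were scaled by TMM factors (edgeR 4.0.16, R 4.3.3). For O4AID a log2 ratio was taken with 0.5 added to each count, over genes with a mean CPM of at least 1, and a gene was set apart at 2-fold. The 95% interval is the exact conditional binomial (Clopper-Pearson) interval of the 6 h reads among those of both libraries (SciPy 1.17.1), for counting error only. No p-value was computed for O4AID. CreER was tested with the edgeR quasi-likelihood method, filterByExpr and robust dispersion, over all 10 libraries, with Benjamini-Hochberg adjustment. Nothing states that replicates were separate cultures, so p-values measure the spread between these samples. The methods were tested on simulated data. The comparison, the 16 gene lists and the 6 marker lists were chosen with earlier results of these data known. Named genes were *Pou5f1*, the 12 largest falls and 12 largest rises among protein-coding genes with a mean CPM of at least 5, and list members; any other named gene was chosen after its values were seen. Promoter windows came from RefSeq, 1 per gene, nearest the start in the files. A member of the Nodal and BMP list is not reported here.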

Additional observations from a re-analysis of the deposited data

How the results depend on the processing

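How many genes were 2-fold apart at 6 h depended on the level asked for. With a mean CPM of at least 0.1 there were 868 lower and 973 higher, with no filter 3772 and 3539, and with a mean CPM of at least 5 there were 77 and 54, since fewer genes of low count then entered. Asking the whole counting interval to lie past 2-fold left 84 lower and 67 higher. Against the 1.5 h library 99 were lower, the median of the naive factors was -0.60 in place of -1.10 and that of the aryl hydrocarbon receptor targets 1.28 in place of 1.73; the cause was not tested. Against the same library the median of the ATF4 targets was -0.024 in place of 0.23, and with total counts that of the common reference genes was 0.001 in place of -0.06. Total counts moved the median of all measured genes from -0.002 to 0.06 and gave 140 lower and 196 higher genes. Of 25 named genes none changed direction under 4 alternatives, and 21 of the 24 falls and rises stayed past 2-fold in all 4, the others being *Spry2*, *Prr15* and *Plk3* against 1.5 h. The 24 were chosen for the largest ratios at 6 h, and only the 1.5 h reference moved ratios by much. That choice thus largely set this outcome, which is no test of these genes.

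For CreER, the replicate numbers did not pair the samples: the correlation of deviations between groups was -0.02 to 0.05 over 10 pairs, and a fit with the replicate block called 7000 genes in place of 6948, with 74 of the lower and 88 of the higher genes called the same way. At 24 h against 0 h, 4089 genes were called, and 48 of the lower genes in place of 73. Leaving out 1 library at a time gave 5627 to 6384 calls, 58 to 69 for the lower and 77 to 83 for the higher genes. DESeq2 called 5043 genes, 61 and 69. With 1 O4AID library a side no replicate could be left out there, and depth limited genes of low count.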

Other observations

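A few further genes, looked at after their values were seen, stood far apart between the 2 libraries. *Il10*, an anti-inflammatory cytokine, had 170 reads at 0 h and 9 reads at 6 h, a log2 ratio of -3.98 (-5.21 to -3.10), with 3.63 CPM at 0 h and 1.52 CPM already at 1.5 h. *Myb*, a transcription factor of blood progenitors, had 144 reads and 16 reads, and *Nkx1-2*, a homeobox gene, 213 reads and 24 reads. *Myb* was also called lower in CreER at 36 h (-1.62, SE 0.13, edgeR adjusted p = 6.04e-11). Among well expressed genes, *Myo10*, an unconventional myosin of filopodia, had 484 CPM at 0 h and 186 CPM at 6 h, and *Zfp57*, which keeps methylation at imprinted loci, had 193 CPM and 83.2 CPM.

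On the other side, *Gadd45g*, a growth arrest gene, had 56 reads at 0 h and 333 reads at 6 h, a log2 ratio of 2.74 (2.34 to 3.19). *Peg10*, an imprinted retrotransposon-derived gene of placenta, had 51.6 CPM at 0 h, 118.5 CPM at 6 h, 274 CPM at 10 h and 1488 CPM at 24 h. *Tinagl1* had 46.9 CPM and 107 CPM, and *S100a13* 30.7 CPM and 73.8 CPM. Both were called higher in CreER at 36 h, by 2.18 (SE 0.08, edgeR adjusted p = 1.06e-17) and 2.64 (SE 0.12, edgeR adjusted p = 1.04e-15) on the log2 scale.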
